A study of Homo sapiens with 28 samples.

Results

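Of the 105048 consensus ATAC-seq peaks counted in Kuramochi cells, 61 overlapped the body of a HOX gene of cluster A, B, C or D or the 5000 bp on either side of it, by RefSeq gene positions (GRCh38). HOXA on chromosome 7 held 15 of them, HOXB on chromosome 17 held 12, HOXC on chromosome 12 held 16 and HOXD on chromosome 2 held 18. A total of 38 HOX genes were looked up, and 37 had at least 1 peak; HOXB1 had none. HOX genes lie close together, so 30 of the peaks fell within 5000 bp of several genes, and each was counted once; 46 of the 61 overlapped a gene body. Kuramochi is an established ovarian cancer cell line, labelled epithelial and BRCA2-mutant in every group, and olaparib is an inhibitor of PARP, an enzyme that signals DNA breaks. C was not treated. The 7 adapted populations (T5 and T10, T20 and T40, T80 and T160, and T320) were resistant cells held at the olaparib dose in uM that each is named for, from 5 to 320. P10 and P320, called persister cells in the labels, were exposed for 9 days to 10 and 320 uM. Each group had 2 libraries, and all came from this single cell line; whether the 2 were separate cultures is not said, so p-values measure only the spread between these libraries, which may be technical. The adapted populations were sorted for low CD24 and high CD44, and C was sorted on the same proteins. For P10 and P320 the labels describe no sort, so sort and drug history cannot be told apart where these groups are compared with C or with adapted cells, nor in adapted cells against C as far as the gates differed.

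HOX genes encode homeodomain transcription factors that set position along the body axis, and within each cluster the gene order follows the order of expression, with low-numbered (anterior) genes at one end and high-numbered (posterior) genes at the other. In the female reproductive tract HOXA9, HOXA10, HOXA11 and HOXA13 pattern the oviduct, uterus, cervix and vagina in that order, and several are expressed in ovarian cancers. Polycomb complexes keep silent HOX chromatin closed, trithorax complexes keep active HOX chromatin open, and PBX and MEIS proteins bind DNA together with HOX proteins. ATAC-seq measures where a transposase can cut, so the values are openness of chromatin and not expression.

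Of the 38 genes, 20 had a promoter window in the RefSeq table, which runs from 250 bases before to 50 bases after the gene's start (GRCh38.p14), and 14 of them had a peak over that window, called the start peak below. A further 16 genes without a window had their strongest peak within 1000 bp of either gene end taken as the gene peak, and that peak may lie at either end. The 5 windows shown are those of HOXA13 and HOXD13, which opened after 9 days of drug, HOXA4, which opened in adapted and in 9-day cells, HOXD1, which closed in T320, and HOXC4, which was not called in any comparison. They are written 5′ to 3′ on the gene's strand with each CpG in capitals.
HOXA13 (chr7:27200042-27200341, minus strand): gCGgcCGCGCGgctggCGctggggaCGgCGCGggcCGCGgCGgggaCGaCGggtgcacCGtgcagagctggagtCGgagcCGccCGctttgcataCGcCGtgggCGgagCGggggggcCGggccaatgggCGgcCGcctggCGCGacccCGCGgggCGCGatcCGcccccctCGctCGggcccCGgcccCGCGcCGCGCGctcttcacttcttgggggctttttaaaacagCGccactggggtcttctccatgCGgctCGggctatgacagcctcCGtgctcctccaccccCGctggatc
HOXD13 (chr2:176092471-176092770, plus strand): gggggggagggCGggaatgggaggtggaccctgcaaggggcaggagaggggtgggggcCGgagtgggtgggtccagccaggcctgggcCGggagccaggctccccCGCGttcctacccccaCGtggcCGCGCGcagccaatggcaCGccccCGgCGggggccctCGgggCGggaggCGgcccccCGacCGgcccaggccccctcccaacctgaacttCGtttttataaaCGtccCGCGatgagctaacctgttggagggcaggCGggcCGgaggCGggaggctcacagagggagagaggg
HOXA4 (chr7:27130708-27131007, minus strand): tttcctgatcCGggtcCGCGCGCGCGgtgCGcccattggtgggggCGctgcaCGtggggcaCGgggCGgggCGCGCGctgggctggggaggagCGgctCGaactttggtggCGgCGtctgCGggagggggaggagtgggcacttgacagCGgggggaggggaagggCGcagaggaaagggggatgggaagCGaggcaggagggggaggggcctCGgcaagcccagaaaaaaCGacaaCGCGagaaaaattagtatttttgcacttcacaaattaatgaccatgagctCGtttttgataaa
HOXD1 (chr2:176188418-176188717, plus strand): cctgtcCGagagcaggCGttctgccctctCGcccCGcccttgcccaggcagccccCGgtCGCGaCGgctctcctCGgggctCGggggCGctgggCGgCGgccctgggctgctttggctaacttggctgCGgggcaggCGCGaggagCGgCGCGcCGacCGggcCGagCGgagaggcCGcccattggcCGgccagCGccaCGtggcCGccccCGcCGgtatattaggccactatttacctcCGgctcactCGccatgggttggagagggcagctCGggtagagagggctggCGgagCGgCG
HOXC4 (chr12:54016638-54016937, plus strand): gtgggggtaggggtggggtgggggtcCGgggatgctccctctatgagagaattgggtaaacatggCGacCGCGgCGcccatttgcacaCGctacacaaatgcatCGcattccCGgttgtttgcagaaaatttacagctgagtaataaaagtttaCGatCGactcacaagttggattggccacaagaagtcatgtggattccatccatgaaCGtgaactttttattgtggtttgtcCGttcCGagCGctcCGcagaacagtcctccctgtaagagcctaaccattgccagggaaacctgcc
The HOXA13 window holds 44 CpG and 76.33% G or C, that of HOXD1 36 CpG, that of HOXA4 27, that of HOXD13 24 and that of HOXC4 15, and the median over the 34943 RefSeq windows is 14 CpG. The HOX core letters TAATNA, read on both strands, occur in 8 of 26 HOX windows (30.77%, alternative windows of a gene counted) and in 23.78% of all windows. AP-1 letters (TGANTCA) occur in none of the 26 and in 7.724% of all windows, and the PBX-HOX letters TGATNNAT in 3 of 26 and in 7.418% of all windows. A match of letters describes the window and shows no bound factor.

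The clusters also hold microRNA genes, and 4 of these overlap a HOX peak, 3 of which are given here because their peak changed. They are written with the seed, bases 2 to 8, in capitals, and share no seed.
miR-196b-5p (between HOXA9 and HOXA10, in the peak at chr7:27169202-27170503): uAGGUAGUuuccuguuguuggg
miR-615-3p (inside HOXC4 and HOXC5, in the peak at chr12:54032493-54034130): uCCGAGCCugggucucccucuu
miR-7704 (in the HOXD1 start peak, chr2:176187175-176190117): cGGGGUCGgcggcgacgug
The peak with MIR196B was lost in T320 against P320 (log2 fold change −1.11 ± 0.26, standard error), the one with MIR615 was gained in T20 and in no other comparison with C (1.07 ± 0.23), and the HOXD1 start peak is described below. The first was not called with scaling from gene-end peaks (−0.67), with the median shift of its 5 Mb window taken off (−0.99) or without T320 replicate 1 (−0.94), and the T20 gain was not called with gene-end scaling (0.94), with the window shift taken off (0.77), without C replicate 1 (0.89) or without T20 replicate 2 (0.91).

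Total counts in peaks per library ran from 9627970 to 29699950. All values are CPM, read counts divided by the library's TMM-scaled size and put on the usual common scale, given as the 2 libraries of a group. A peak is called gained or lost where edgeR's quasi-likelihood test, fitted to all 105048 peaks, passed 0.05 after Benjamini-Hochberg adjustment with a log2 fold change of 1 or more, up or down; every adjusted p below is of this kind, and ± after a log2 fold change is its standard error. Openness and the number of DNA copies cannot be told apart in such counts. Beside each cluster the other peaks within 2.5 Mb of it, 272 for HOXA, 299 for HOXB, 295 for HOXC and 220 for HOXD, are therefore given as its flanks. All 12 genes of a list for serous ovarian epithelium (PAX8 among them) had a peak. So did 4 of 6 blood, 3 of 5 fibroblast and 3 of 4 endothelial genes, so having a peak does not check the label. The summed level of the 12 serous genes was 254.7 and 338.1 CPM in C. It ran from 182.3 to 232.4 CPM in the adapted libraries and from 354.5 to 393.7 CPM in the 9-day libraries.

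The 4 clusters moved apart in the adapted populations. The 18 HOXD peaks together held 195.3 and 260.3 CPM in C, between 122.6 and 180.0 CPM in the 14 adapted libraries, and 126.3 and 122.6 CPM in T320. Every adapted library lay below both C libraries. The 16 HOXC peaks held 108.7 and 130.1 CPM in C, between 133.9 and 259.8 CPM in the adapted libraries, and 206.2 and 259.8 CPM in T40, the highest group. The 12 HOXB peaks held 130.2 and 141.4 CPM in C and between 175.4 and 264.1 CPM in the adapted libraries. For HOXB and HOXC every adapted library lay above both C libraries. The 15 HOXA peaks held 124.3 and 132.1 CPM in C, 95.83 and 103.5 CPM in T5, and 150.3 and 186.0 CPM in T40, so that adapted libraries lay on both sides of C. These sums are not compared between clusters, whose peaks differ in number and width.

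After 9 days of drug the order was another one. HOXD held 250.2 and 258.4 CPM in P10, within the range of C, and 339.5 and 322.4 CPM in P320, above every other library. HOXA held 180.6 and 183.6 CPM in P10 and 200.6 and 204.9 CPM in P320, above C in both. HOXC held 123.1 and 120.0 CPM in P10, within the range of C, and 144.2 and 139.7 CPM in P320. HOXB held 162.7 and 157.0 CPM in P10 and 171.2 and 164.2 CPM in P320, above C but below every adapted library. HOXD was thus below C in adapted cells and above it in P320, while HOXB was higher in every adapted library, and HOXC in every library of T10 to T320, than in any C or 9-day library.

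**Figure D1:**
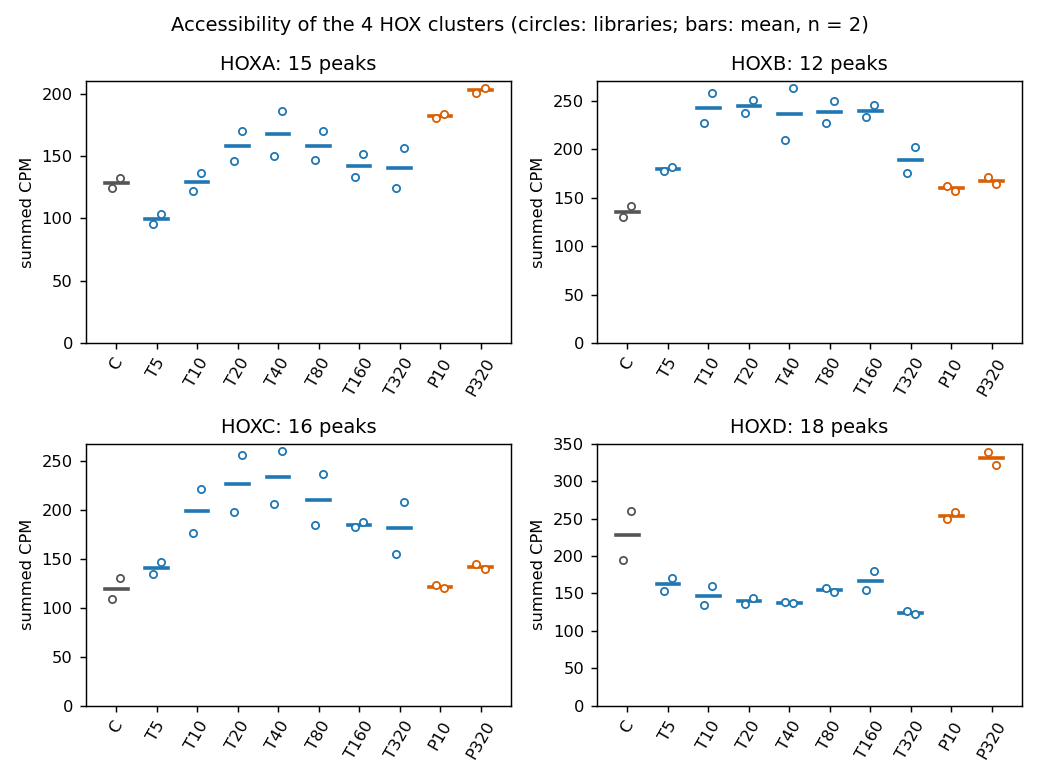
Summed CPM of the peaks of each HOX cluster (y axes, linear, from 0) in the 10 groups (x axes); circles are libraries and bars are means of 2. HOXD lies at 122.6 to 180.0 CPM in the adapted libraries and at 322.4 and 339.5 CPM in P320, with C at 195.3 and 260.3; HOXB and HOXC are above C in every adapted library.

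The flanks moved in part with the clusters. The summed HOXD level of T320 was 0.546 times the mean of C, while that of its flanks was 0.860 times. For HOXC in T40 the ratio was 1.95 with 1.15 in the flanks, and for HOXA in P320 it was 1.58 with 1.03 in the flanks. For HOXB the ratio was 1.80 in T20 with 1.25 in the flanks, 1.77 in T160 with 1.44, and 1.39 in T320 with 1.21. HOXD in P320 had a ratio of 1.45 with 1.03 in the flanks.

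Counted peak by peak, the adapted populations showed gains in HOXA, HOXB and HOXC and losses in HOXD. No HOX peak was gained and 1 was lost in T5, where 4.73% of all peaks were gained and 4.46% lost. T10 had 6 gained and 3 lost of 61, with 8.51% and 9.22% over all peaks. T20 had 11 gained and 4 lost, with 11.2% and 13.3% over all peaks, and T40 had 13 and 4, with 11.8% and 13.3%. T80 had 9 gained and 3 lost, with 12.3% and 13.6%, and T160 had 8 and 2, with 11% and 12.5%. T320 had 9 gained and 7 lost, with 15% and 15.5% over all peaks. Taken as 1 set, the gained share of the 61 was above the background in T20 and T40, near it from T10 on in the others and below it in T5, and the lost share was below the background in each of the 7. With scaling from gene-end peaks the splits were 3 gained and 4 lost in T10, 8 and 5 in T20 and 9 and 6 in T40, with the median of all peaks at −0.10, −0.14 and −0.13, and in T320 it was 10 and 4 with the median shift of each 5 Mb window taken off. All 7 comparisons share the C libraries, so their counts are not independent of each other.

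By cluster the directions separated. Over the 7 adapted populations 4 HOXA, 4 HOXB, 8 HOXC and 0 HOXD peaks were gained in at least 1, and 1 HOXA, 0 HOXB, 0 HOXC and 7 HOXD peaks were lost in at least 1. No peak was gained in one population and lost in another, and 37 of 61 were called in none. The share of all peaks called in at least 1 of the 7 was not counted. These counts therefore give directions by cluster and do not say whether HOX peaks were called more or less often than others. The counts of 0 held with DESeq2 as well: in T320 it gained 0 HOXD peaks and lost 0 HOXB and 0 HOXC peaks, and at an unadjusted p under 0.05 there were also 0 HOXD peaks up and 0 HOXB or HOXC peaks down. In T320 the cluster medians of the log2 fold change were 0.07 for HOXA, 0.40 for HOXB, 0.47 for HOXC and −0.78 for HOXD, the median of all peaks was −0.01, and the flank medians were −0.22, 0.25, 0.21 and −0.19. In T40 they were 0.30, 0.79, 0.91 and −0.68, with flanks at −0.29, 0.26, 0.24 and −0.34. The HOXB and HOXC medians were above zero and the HOXD median below zero in all 7 adapted populations under each scaling tried; the HOXA median changed sign with the scaling in T10 and T160.

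**Figure D2:**
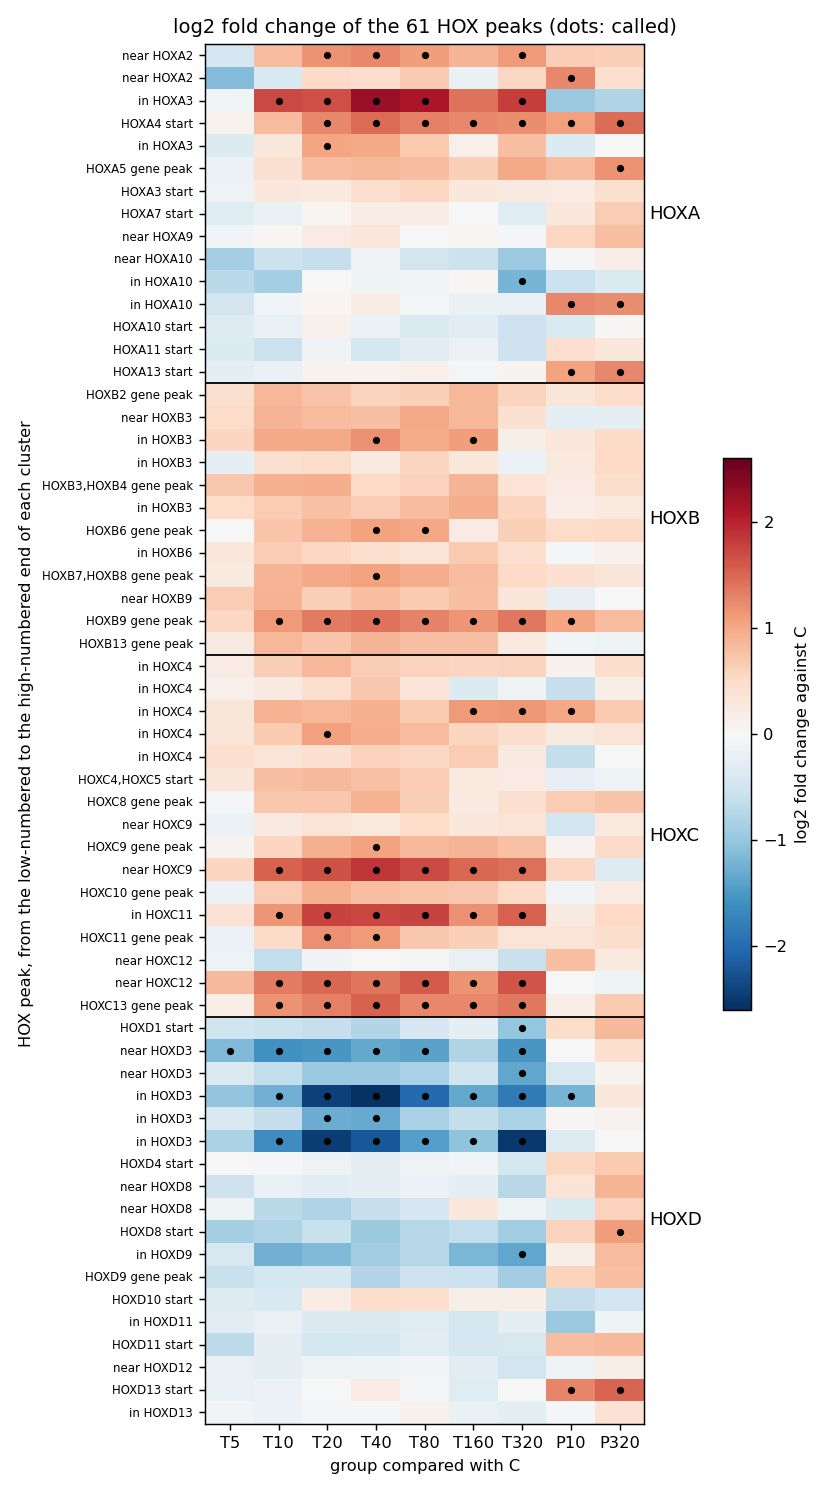
Log2 fold change against C (colour, from blue below to red above zero) of each of the 61 HOX peaks (rows, from the low-numbered to the high-numbered end of each cluster) in the 9 other groups (columns); dots mark called peaks. Blue rows with dots in adapted groups lie between HOXD1 and HOXD9 and in HOXA10, red rows with dots lie in HOXA, HOXB and HOXC, and the dots at HOXA13 and HOXD13 are in P10 and P320 only.

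Losses in HOXD concentrated at its anterior end. Of the 7 peaks from HOXD4 to HOXD1, 5 were lost in T320 (median log2 fold change −1.34), 4 in T20 and in T40, 3 in T10 and in T80, 2 in T160 and 1 in T5, and all 7 had a negative fold change in each adapted population. Of the 11 peaks from HOXD13 to HOXD8, 1 was lost in T320 (median −0.42) and 0 in the other 6 populations. The difference between the 2 stretches was not tested, since the border between them was drawn after the values were seen.

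HOXD3, an anterior gene that acts in the neck vertebrae, held 4 peaks over its body. The HOXD4 start peak, given below, is 1 of them, and the other 3 are given here. The widest (chr2:176158932-176161130) had 23.14 and 32.81 CPM in C and 7.706 and 2.733 CPM in T320, with 22.32 and 22.14 CPM in P10 and 28.1 and 28.39 CPM in P320. It was lost in 6 of 7 adapted populations, every adapted library lay below both C libraries, and the 9-day libraries lay between 22.14 and 28.39 CPM. The log2 fold change in T320 was −2.50 ± 0.36 (adjusted p = 2.8e-05), and the T320 libraries stood further apart, as a ratio, than those of any other group, so the value was −3.36 without T320 replicate 1 and −1.87 without T320 replicate 2, called in both cases. In T160 the loss was smaller, −1.05 ± 0.33 (adjusted p = 0.019), with 11.6 and 15.41 CPM, and not called with the window offset (−0.93), without C replicate 2 (−0.77) or without T160 replicate 1 (−0.86). A narrower peak in the same gene body (chr2:176170294-176170859; chosen after its values were seen, as are the next 3) went from 5.991 and 9.665 CPM in C to 2.74 and 1.748 CPM in T320. It stayed at 9.953 and 9.437 CPM in P320 but stood at 2.911 and 3.88 CPM in P10. It was lost in T10 to T320 and also in P10 (log2 fold change −1.22 ± 0.38, adjusted p = 0.020). The P10 call ended without any 1 of C replicate 2 (−0.82), P10 replicate 1 (−1.02) and P10 replicate 2 (−1.44), and with the window offset (−0.92). The T10 call also ended without C replicate 2 (−0.84), T10 replicate 1 (−1.12) or T10 replicate 2 (−1.4). The T160 call ended without C replicate 2 (−0.93) or T160 replicate 1 (−1.11). Those in T20, T40, T80 and T320 were kept in all 13 alternative runs. The remaining HOXD3 peak (chr2:176161866-176162415) was lost in T20 and T40, at −1.29 and −1.31, and had −0.83 in T320; the T20 call ended without T20 replicate 2 (−1.29), and the T40 call without T40 replicate 2 (−0.93) and with the window offset (−0.95).

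Between HOXD3 and HOXD1 lie 2 peaks of the antisense genes HAGLR and HAGLROS, noncoding RNAs transcribed from this interval. The peak over their start windows (chr2:176177597-176179041) had 16.17 and 26.17 CPM in C, 7.791 and 7.214 CPM in T320, 20.11 and 22.45 CPM in P10 and 28.24 and 28.27 CPM in P320. Adapted libraries ranged from 5.101 to 13.27 CPM, below both C libraries. It was the only HOX peak lost in T5 (log2 fold change −1.14 ± 0.26, adjusted p = 0.0075; −0.74 without C replicate 2 and −0.90 without T5 replicate 1, then not called), and it was lost in every adapted population except T160, where the fold change was −0.79. The peak 1080 bp past HOXD3, inside HAGLR (chr2:176174178-176175677), had 18.38 and 24.33 CPM in C, 8.99 and 7.976 CPM in T320 and 22.02 and 23.37 CPM in P320. It was lost in T320 only (−1.34 ± 0.25, adjusted p = 0.00029).

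The HOXD1 start peak, over the promoter window shown above, had 22.16 and 26.26 CPM in C, 11.47 and 12.55 CPM in T320, 34.13 and 33.61 CPM in P10 and 44.54 and 41.98 CPM in P320. HOXD1 is the most anterior gene of its cluster. All T libraries lay below C and all P libraries above it. The T320 loss of −1.01 ± 0.16 (adjusted p = 8.6e-05) lay at the fold limit and was not called without C replicate 2 (−0.88), without T320 replicate 1 (−0.95) or with the shift of its 5 Mb window taken off (−0.81). The rise in P320 was 0.83 ± 0.16 (adjusted p = 0.0013), under the fold minimum. HOXD4 (this peak and the next chosen after their values were seen) had its start peak at 16.33 and 19 CPM in C, 11.73 and 13.8 CPM in T320 and 29.65 and 27.16 CPM in P320, and was called in neither against C. In HOXD9 a peak beside its gene peak (chr2:176124601-176125362) was lost in T320 (−1.35 ± 0.52, adjusted p = 0.043), at 2.825 and 0.8514 CPM against 4.268 and 4.526 CPM in C; it is the single loss outside the anterior stretch, and was not called without T320 replicate 2 (−0.64), without C replicate 1 (−1.39), without C replicate 2 (−1.31) or with the window offset (−1.14), and was −2.36 without T320 replicate 1.

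**Figure D3:**
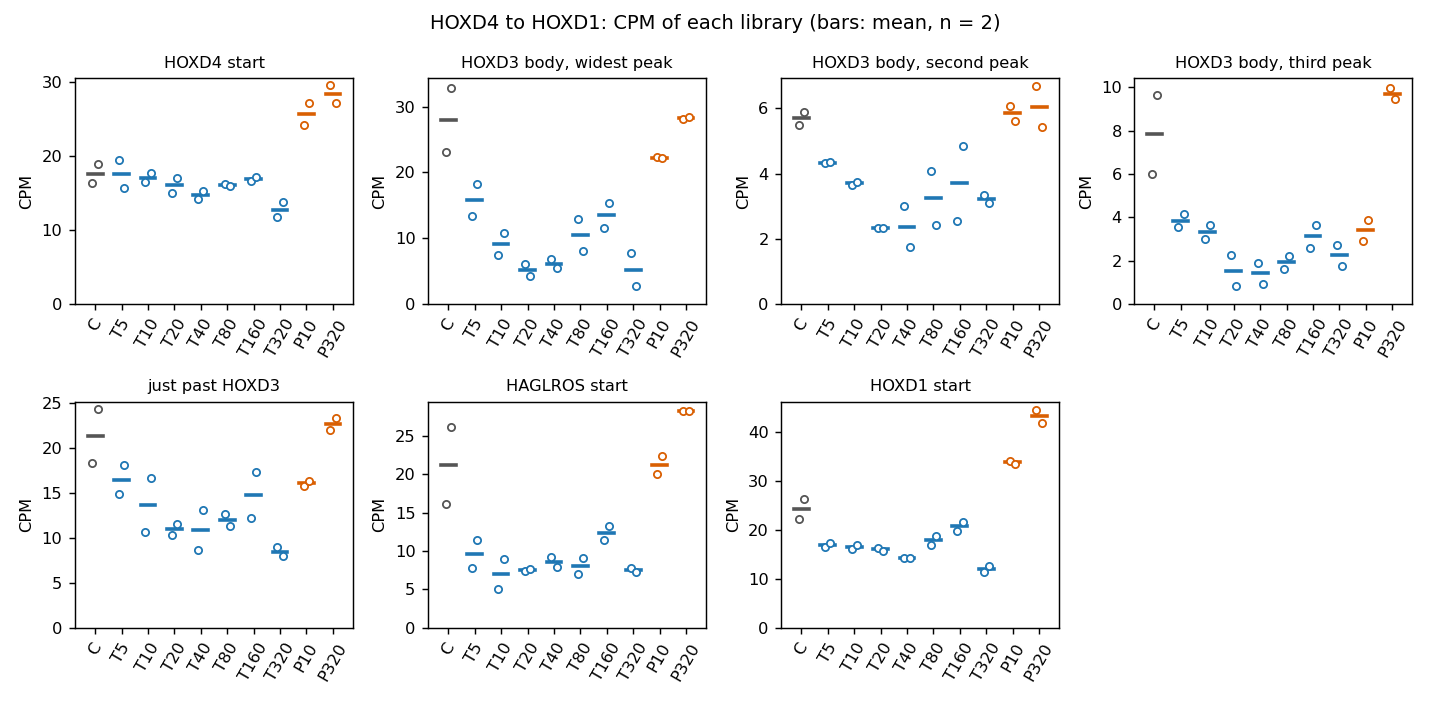
CPM (y axes, linear, from 0) of the 7 peaks from HOXD4 to HOXD1 in each library of the 10 groups (x axes); circles are libraries and bars are means of 2. In the widest HOXD3 peak adapted libraries reach 18.29 CPM at most while C has 23.14 and 32.81, and in the HOXD1 start peak P320 has 44.54 and 41.98 CPM against 22.16 and 26.26 in C.

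The HOXC gains seen in most adapted populations lay between HOXC13 and HOXC9. HOXC13, the last gene of the cluster and known for its part in hair and nail formation, had a gene peak (chr12:53938148-53939999) at 10.09 and 12.49 CPM in C, between 21.83 and 37.44 CPM in the libraries of T10 to T320, and at 12.62 and 13.08 CPM in T5. It was gained in those 6 populations, with a log2 fold change in T320 of 1.36 ± 0.25 (adjusted p = 0.00025; 0.94 and not called without T320 replicate 2, which had 36.16 CPM against 21.83 in the other). In P10 it had 13.8 and 11.77 CPM and in P320 19.2 and 17.43 CPM (0.69 ± 0.24, adjusted p = 0.055). A peak in the interval between HOXC10 and HOXC9 (chr12:53994566-53996495, 3666 bp from HOXC9) had 7.386 and 5.469 CPM in C, 12.93 and 21.2 CPM in T320, 9.835 and 8.544 CPM in P10 and 4.977 and 5.164 CPM in P320. Adapted cells from T10 on lay above C and P, and the P320 libraries lay below both C libraries. Its T320 gain was 1.44 ± 0.27 (adjusted p = 0.00030), and it was gained in the same 6 populations.

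A peak 1340 bp from HOXC12 (chr12:53952978-53953563) stood at 1.231 and 1.792 CPM in C, 4.538 and 5.019 CPM in T320, and at 1.624 and 1.226 CPM in P320. The C and P libraries did not exceed 1.792 CPM, and T10 to T320 were all at or above 3.304 CPM. The gain in T320 was 1.63 ± 0.32 (adjusted p = 0.00049). In HOXC11 a peak beside the gene peak (chr12:53974399-53975066; chosen after its values were seen) was gained in T10 to T320, at 1.54 ± 0.40 in T320 (adjusted p = 0.0046), with 2.134 and 1.556 CPM in C and 4.709 and 5.78 CPM in T320; without C replicate 2 the value was 1.30 and not called. The T10 call of this HOXC11 peak was kept in 7 of 13 alternative runs (0.79 without T10 replicate 2). Its T160 call was kept in 8 of 13 (0.44 without T160 replicate 2). These 4 peaks were the HOXC peaks gained in at least 5 adapted populations. The peak shared by the starts of HOXC4 and HOXC5 and by HOXC6, over the HOXC4 window shown above, had 21.83 and 29.99 CPM in C, 22.18 and 37.46 CPM in T320 and 24.18 and 23.41 CPM in P320, and was called nowhere (0.21 in T320, −0.13 in P320). The fifth HOXC peak gained in T320, inside HOXC4 (chr12:54036632-54037251; chosen after its values were seen), had 1.12 ± 0.28 (adjusted p = 0.0031), 0.90 and not called with the window shift taken off. With that offset HOXC kept 4 of its 5 gains in T320, but fewer in other populations. In T10 it ended the gains of HOXC13 (0.75), the HOXC12 peak (0.96) and the HOXC11 peak (0.74). In T160 it ended those of the HOXC12 peak (0.93), the HOXC11 peak (0.93) and this HOXC4 peak (0.86), and in T80 that of HOXC13 (0.99). The HOXC11 gene peak was then not called in T20 (0.89) or T40 (0.81), nor the MIR615 peak in T20 (0.77) or the HOXC9 gene peak in T40 (0.76).

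In HOXB every peak leaned upward but few were called. All 12 had a positive fold change in each of T10 to T160, with medians of 0.88, 0.79, 0.79, 0.80 and 0.83, yet 1, 1, 4, 2 and 2 were gained, since most rises stayed under the fold minimum. HOXB9, a posterior gene that acts in the thoracic skeleton, had its gene peak (chr17:48624998-48626792) at 7.222 and 5.186 CPM in C, 14.04 and 17.57 CPM in T320, 11.78 and 13.34 CPM in P10 and 11.26 and 10.22 CPM in P320. It was gained in T10 to T320 (1.37 ± 0.20 in T320, adjusted p = 2.6e-05) and in P10 (1.03 ± 0.19, adjusted p = 0.00073), and it was the only HOXB peak gained in at least 5 adapted populations. HOXB13, a posterior gene set apart from the rest of its cluster and known from prostate, had 8.617 and 6.884 CPM in C and 9.332 and 8.962 CPM in T320, and was not called in T320 (0.25 ± 0.20) or P320 (−0.13 ± 0.20). In T10 to T160 the HOXB13 libraries lay above both C libraries, between 11.65 and 15.25 CPM, with log2 fold changes from 0.72 in T20 to 0.88 in T40 (adjusted p = 0.0087 and 0.0020), under the fold minimum. The flanks of HOXB shifted with it, with medians of 0.49 in T10 and 0.54 in T160. With the shift of the 5 Mb window taken off, the HOXB medians were 0.30 in T10 and 0.21 in T160, and 0, 0, 1, 0, 0 and 1 peaks were gained in T10, T20, T40, T80, T160 and T320; the HOXB9 gain was kept in T320 but not in T10 (0.52), T20 (0.91), T80 (0.85), T160 (0.53) or P10 (0.93), and the P10 gain was also not called with gene-end scaling (0.87), without C replicate 2 (0.80) or without P10 replicate 2 (0.94). Whether DNA copy number had a part in this was not tested.

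HOXA split into 2 stretches. The 6 peaks from HOXA2 to HOXA5 all had a positive log2 fold change in T320, with 3 gained and a median of 1.05. The 9 peaks from the HOXA3 start to HOXA13 had 1 lost, 0 gained and a median of −0.28. The border was drawn after the values were seen. HOXA4, a gene that acts in the neck vertebrae, had its start peak (chr7:27129920-27131428) at 4.678 and 4.526 CPM in C, 9.332 and 11.83 CPM in T320, 9.791 and 9.59 CPM in P10 and 12.25 and 12.89 CPM in P320. It was gained in T20 to T320 and in both 9-day groups: 1.21 ± 0.22 in T320 (adjusted p = 0.00023), 1.08 ± 0.22 in P10 (adjusted p = 0.0012) and 1.45 ± 0.21 in P320 (adjusted p = 0.00022). It was the only HOX peak gained in both T320 and P320, and with gene-end scaling it was not called in P10 (0.92) or P320 (0.97). The outermost peak on the HOXA2 side (chr7:27095647-27097236, 3118 bp from HOXA2) had 8.453 and 8.581 CPM in C and 14.04 and 22.58 CPM in T320, a gain of 1.12 ± 0.26 (adjusted p = 0.0022) that ended without T320 replicate 2 (0.72).

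A peak inside HOXA3 (chr7:27120369-27120935) was gained in T10 to T80 and in T320 and called in neither 9-day group. It had 2.216 and 0.4715 CPM in C, between 2.497 and 6.324 CPM in the libraries of T10 to T320, 0.6615 and 0.6103 CPM in P10 and 0.8118 and 0.6316 CPM in P320. The T libraries from T10 on lay above both C libraries, and the P libraries lay within the range of C. The log2 fold change in T320 was 1.80 ± 0.53 (adjusted p = 0.011) but depended on single libraries of this weak peak. It was 3.18 without C replicate 1, 0.97 and not called without C replicate 2, and 1.10 and not called without T320 replicate 2. Without C replicate 2 the calls in T10 (0.89), T20 (0.83), T40 (1.41) and T80 (1.3) ended too. The T10 and T20 calls also ended with gene-end scaling (1.51 and 1.42) and without their own replicate 2 (1.33 and 1.0). With the compared groups alone the T10 call ended as well (1.68). In HOXA10, a gene needed for uterine development, 2 body peaks went different ways. One (chr7:27171108-27172084) had 10.01 and 9.43 CPM in C, 4.623 and 3.854 CPM in T320 and 6.847 and 8.397 CPM in P320, and was lost in T320 (−1.21 ± 0.25, adjusted p = 0.00068; −0.99 with the window offset). The other (chr7:27172661-27174255) had 9.027 and 9.76 CPM in C, 8.476 and 8.066 CPM in T320, 23.2 and 21.71 CPM in P10 and 21 and 22.37 CPM in P320, and was gained in P10 (1.25 ± 0.20, adjusted p = 0.00020) and P320 (1.20 ± 0.20, adjusted p = 0.00047; 0.73 and not called with gene-end scaling). The HOXA10 start peak was called in neither T320 (−0.54 ± 0.28) nor P320 (0.03 ± 0.26). HOXA10 also has an alternative promoter window (chr7:27174271-27174570), over which no peak lay. The body peak gained in P10 and P320 ends just before that window.

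**Figure D4:**
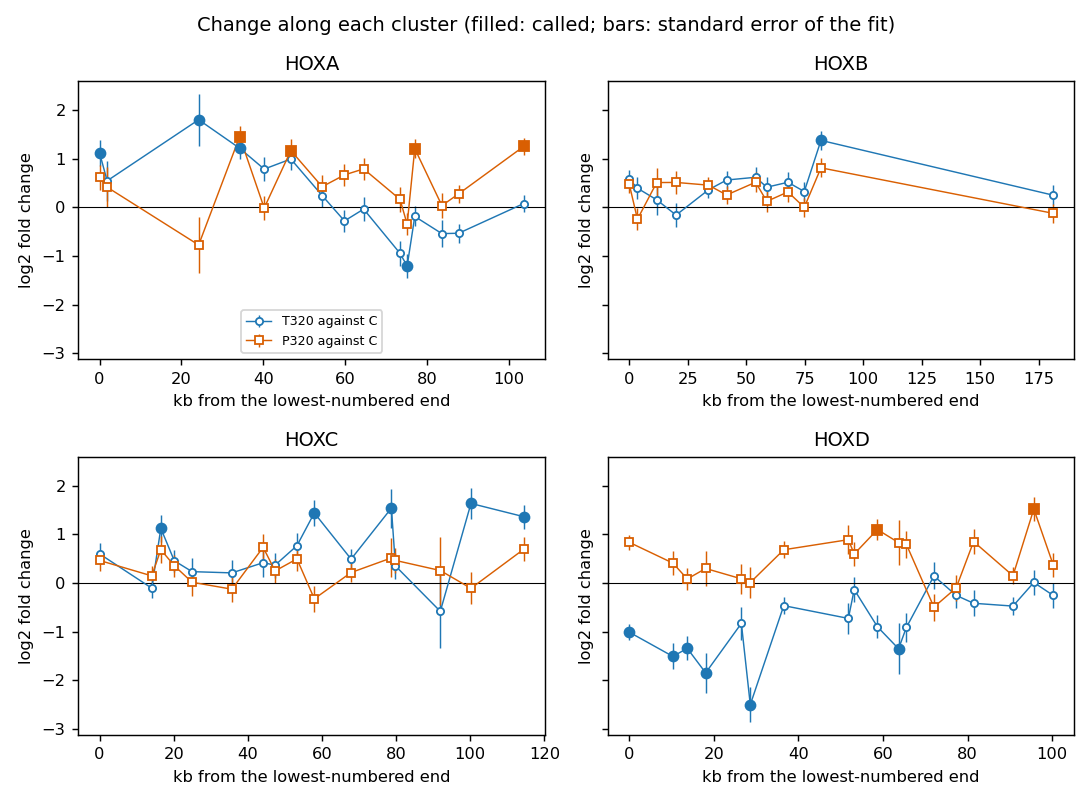
Log2 fold change against C (y axes, with the standard error of the fit as bars) of each HOX peak by its distance in kb from the low-numbered end of its cluster (x axes), for T320 (blue circles) and P320 (orange squares); filled symbols are called. T320 runs from gains at the HOXA2 to HOXA5 end to a loss in HOXA10, and in HOXD it lies lowest at the HOXD1 to HOXD3 end, where P320 lies at or above zero.

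In 9-day cells most gained HOX peaks lay in HOXA. P10 had 4 gains in HOXA and 1 each in HOXB, HOXC and HOXD, and P320 had 4 in HOXA and 2 in HOXD. P10 had 7 gained and 1 lost of 61 HOX peaks, with 9.32% gained and 12.8% lost over all peaks, and P320 had 6 gained and 0 lost, with 3.94% and 7.91% over all peaks; DESeq2 also called 0 lost in P320, and at an unadjusted p under 0.05 there were 24 peaks up and 0 down. The cluster medians in P320 were 0.42, 0.38, 0.30 and 0.50 for HOXA, HOXB, HOXC and HOXD, with all peaks at −0.11. Start peaks of all RefSeq genes had a median of 0.39 in P320, with 13.92% gained and 0.9383% lost. Of the 26 start and gene peaks of HOX genes 5 were gained in P320 (median 0.59), and of the other 35 HOX peaks 1 was (median 0.25), so the HOX medians lay near those of gene starts in general. The share of counts in peaks at gene ends was 38.2% and 37.5% in the P320 libraries and 27.8% to 35.3% in the other libraries. With scaling factors taken from gene-end peaks alone the median of all peaks in P320 moved from −0.11 to −0.60, the medians of HOXA, HOXB and HOXC turned to −0.05, −0.09 and −0.17, that of HOXD was 0.05, and 1 gained and 0 lost HOX peaks remained instead of 6 and 0. In P10 the split went from 7 gained and 1 lost to 2 and 2, and to 7 and 0 with the window offset.

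The 4 genes of group 13, the most posterior ones, differed among themselves in this setting. HOXA13, needed for the lower genital tract and the digits, had its start peak (chr7:27198765-27201322) at 13.62 and 14.95 CPM in C, between 10.92 and 16.3 CPM in the adapted libraries, 30.56 and 28.6 CPM in P10 and 34.45 and 33.51 CPM in P320. The adapted libraries lay around C and all P libraries above both. Its log2 fold change was 1.25 ± 0.17 in P320 (adjusted p = 0.00011), 1.05 ± 0.17 in P10 (adjusted p = 0.00022) and 0.07 ± 0.17 in T320 (adjusted p = 0.75). HOXD13, a digit and genital tubercle gene, had its start peak (chr2:176092439-176093583) at 4.185 and 7.308 CPM in C, 5.651 and 6.094 CPM in T320, 14.95 and 13.34 CPM in P10 and 18.21 and 15.31 CPM in P320, with 1.52 ± 0.25 in P320 (adjusted p = 0.00044), 1.27 ± 0.25 in P10 (adjusted p = 0.00096) and 0.01 ± 0.26 in T320. HOXC13 instead was gained in adapted cells and HOXB13 in neither T320 nor P320, as given above. The P320 gain of HOXD13 was the only HOX gain left with gene-end scaling; HOXA13 was then 0.77 and not called. In P10 the HOXA13 gain ended without C replicate 1 (0.98), without P10 replicate 1 (1.00) and with gene-end scaling (0.90), and the HOXD13 gain ended without C replicate 1 (0.95).

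**Figure D5:**
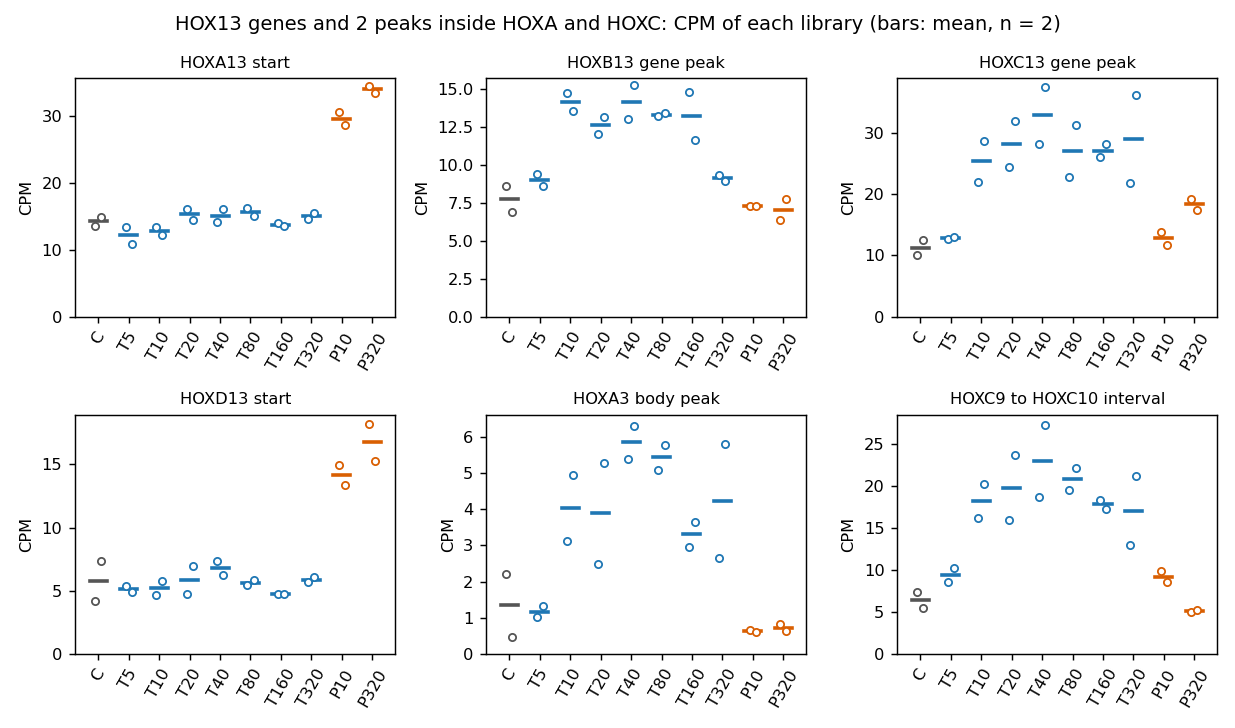
CPM (y axes, linear, from 0) of the start or gene peaks of the 4 HOX13 genes and of 2 further peaks, inside HOXA3 and between HOXC9 and HOXC10, in each library of the 10 groups (x axes); circles are libraries and bars are means of 2. HOXA13 and HOXD13 are high in P10 and P320 only, with 28.6 to 34.45 CPM and 13.34 to 18.21 CPM, while HOXC13 is high from T10 to T320, at 21.83 to 37.44 CPM.

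HOXD8 was the other HOXD start peak gained in P320. It had 11.08 and 17.11 CPM in C, 7.877 and 7.394 CPM in T320, 20.15 and 23.15 CPM in P10 and 33.11 and 27.68 CPM in P320. All adapted libraries lay below both C libraries and all 9-day libraries above both. The rise in P320 was 1.10 ± 0.22 (adjusted p = 0.0023; 0.83 and not called without C replicate 1, 0.64 and not called with gene-end scaling) and the change in T320 −0.90 ± 0.23 (adjusted p = 0.0046), under the fold minimum. HOXA5, whose gene peak was chosen after its values were seen, was gained in P320 at 1.16 ± 0.23 (adjusted p = 0.0018) and had 0.99 ± 0.23 in T320, just under the fold minimum. Among the 13 HOX windows with a peak, counting shared peaks once per window, 3 of the 7 with at least 27 CpG were gained in P320 (median 0.85) and 1 of the 6 with fewer (median 0.15); in T320 the medians were −0.28 and −0.23. The border of 27 is their median, and the difference was not tested. The P10 gains not yet given were a peak 1737 bp from HOXA2 (chr7:27097968-27098617; 1.25 ± 0.40, adjusted p = 0.024) and the HOXC4 peak at chr12:54036632-54037251 (1.00 ± 0.27, adjusted p = 0.0091). The first was not called with gene-end scaling (1.06), without C replicate 2 (0.87) or without P10 replicate 1 (1.42) or 2 (1.04), and the other was not called with gene-end scaling (0.85), with the window offset (0.95), without C replicate 2 (0.96) or without P10 replicate 1 (0.90). By position along the body axis, 0 of 4 anterior, 3 of 10 central and 2 of 13 posterior start or gene peaks were gained in P320, with medians of 0.46, 0.67 and 0.49.

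Adapted and 9-day cells were then compared at the same dose. In T320 against P320, 4 HOX peaks were gained and 15 lost, with 19.7% gained and 14.5% lost over all peaks. HOXD accounted for 12 of the 15 losses and had 0 gains (0 with DESeq2, 1 peak up at an unadjusted p under 0.05), with a median of −1.47 against 0.03 for all peaks and −0.38 for start peaks of RefSeq genes. HOXA had 1 gained and 3 lost, HOXC 3 gained and 0 lost, and HOXB 0 and 0 (0 and 0 with DESeq2, 2 up and 1 down at an unadjusted p under 0.05). With gene-end scaling the split was 9 gained and 9 lost instead of 4 and 15, with the median of all peaks at 0.48; HOXD then kept 9 losses and a median of −1.02. The HOXD1 start peak differed by −1.84 ± 0.16 (adjusted p = 1.9e-07), the HOXD8 start peak by −2.0 ± 0.23 (adjusted p = 2.2e-06), and the widest HOXD3 peak by −2.51 ± 0.36 (adjusted p = 1.6e-05; −3.37 and −1.87 without T320 replicate 1 or 2). Both anterior and posterior HOXD genes were in this set: the HOXD13 start peak differed by −1.51 ± 0.25 (adjusted p = 7.1e-05). In HOXA the start peak of HOXA13 (−1.17 ± 0.17, adjusted p = 1.7e-05) and the second HOXA10 body peak (−1.39 ± 0.20, adjusted p = 1.8e-05) were lower in T320, with −0.72 and −0.94 and no call under gene-end scaling.

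Higher in T320 than in P320 were the HOXA3 body peak (2.57 ± 0.53, adjusted p = 0.00061; 1.87 without T320 replicate 2, still called), the HOXC9 to HOXC10 interval (1.76 ± 0.26, adjusted p = 2.5e-05), the peak near HOXC12 (1.74 ± 0.31, adjusted p = 0.00015) and the HOXC11 peak (1.02 ± 0.37, adjusted p = 0.030; not called without T320 replicate 2 or without either P320 library). At 10 uM, T10 against P10 gave 4 gained and 11 lost, with 17.8% and 15.1% over all peaks, and HOXD again had most losses, 8 of 11, with a median of −0.63. The split was 7 and 10 with gene-end scaling and 2 and 11 with the window offset. The HOXD8 start peak was −1.39 ± 0.23 (adjusted p = 0.00011), the HOXD1 start peak −1.04 ± 0.16 (adjusted p = 5.6e-05) and the HOXA13 start peak −1.21 ± 0.17 (adjusted p = 2.3e-05) there.

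Whether the step from 10 to 320 uM differed between adapted and 9-day cells was tested with an interaction term. It called 1 HOX peak up and 3 down, with 13.6% and 10% over all peaks. The narrow HOXD3 peak (chr2:176170294-176170859) had the largest value, −2.12 ± 0.56 (adjusted p = 0.0092). It went from 2.911 and 3.88 CPM in P10 to 9.953 and 9.437 CPM in P320, while T10 had 2.988 and 3.635 CPM and T320 2.74 and 1.748 CPM. The split was 2 up and 1 down with gene-end scaling and with the window offset. Across the 7 adapted populations no HOX peak was called as following the dose. By edgeR, 0 were called rising and 0 falling at a slope of 0.25 log2 units per doubling, where 3.37% of all peaks rose and 2.35% fell. An unadjusted p under 0.05 was found for 2 of the 61 HOX peaks and for 30366 of all 105048 peaks. DESeq2 called 0 HOX peaks. Slopes of the 61 peaks ran from −0.12 to 0.20. The cluster sums did not order by dose either: HOXA and HOXC were highest in T40, HOXB in T20, and HOXD was highest in T160 and lowest in T320 among the adapted groups.

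Genes that act with or on the HOX clusters were read from lists, each gene by 1 start or gene peak. Of 9 HOX cofactors 7 had such a peak, and in T320 0 were gained and 2 lost by edgeR and by DESeq2, PKNOX2, of the same homeodomain class as MEIS, among the lost (−1.20). In P320 PBX3 alone was gained (1.38). Of 21 Polycomb genes 20 had a peak, and 0 were called in T320 by edgeR or DESeq2 (median 0.15; at an unadjusted p under 0.05, 3 up and 4 down), whereas in P320 7 were gained and 0 lost by both tools (median 0.77; unadjusted, 13 up and 0 down). These were the H3K27 methyltransferase EZH2 (1.39), BMI1 (1.45), CBX6 (1.30), CBX7 (1.40), PHC1 (1.19), PHC2 (1.04) and KDM2B (1.92), and 6 Polycomb genes were lower in T320 than in P320. All 12 trithorax genes and antagonists of Polycomb had a peak, with KDM6B, an H3K27 demethylase, gained in T320 (1.02) and KMT2C gained in P320 (1.45). Of 8 loop factors 0 were called in T320 by edgeR or DESeq2 (0 at an unadjusted p under 0.05), and CTCF (1.22) and WAPL (1.18) were gained in P320. Of 9 upstream signals, such as retinoic acid receptors and CDX genes, 7 had a peak and 0 were called by edgeR or DESeq2 in T320 (1 up at an unadjusted p under 0.05) or in P320 (2 up). Of 14 other homeobox genes of the same class 13 had a peak; DLX5 (1.10) was gained in T320, and EN2 (1.06), GBX1 (1.38), GBX2 (1.60), MNX1 (1.85) and MSX1 (1.04) in P320. Among neighbours of the clusters SKAP2, beside HOXA, was gained in T320 (2.23), and SKAP1, beside HOXB, was gained in T320 (1.02) and lost in P320 (−1.38). Start peaks over all genes had a median of 0.39 in P320, with 13.92% gained and 0.9383% lost. In T320 against C 6.456% of them were gained and 5.831% lost, and in T320 against P320 4.907% were gained and 19.73% lost. Values of the list genes under gene-end scaling, which ended most HOX gains in P320, are not given here. Several of the P320 gains lay close to the fold minimum, and these lists were not tested as sets.

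Markers of other cell types were read in the same way. Of 6 blood genes 4 had a peak, summing to 71.65 and 69.17 CPM in C, 120.4 and 158.2 CPM in T320 and 80.83 and 79.47 CPM in P320; in T320 2 were gained, CD68 (1.84) and CSF1R (1.34), and 1 was lost, and PTPRC, the defining leukocyte gene, and CD3E had no start or gene peak. Of 5 fibroblast genes 3 had a peak, 0 called in T320 by edgeR or DESeq2 (1 down at an unadjusted p under 0.05), at 31.1 and 41.4 CPM in C and 31.76 and 31.68 CPM in T320, and DCN and PDGFRB had none. Of 4 endothelial genes 3 had a peak, at 46.53 and 46.63 CPM in C and 47.0 and 52.97 CPM in T320, with PECAM1 gained (1.01). Of the 12 serous epithelium genes 5 were lost in T320 (SOX17, WT1, EMX2, MUC16 and MSLN) and 1 gained (KRT18), with a list median of −0.58, where 6.456% of start peaks of all RefSeq genes were gained and 5.831% lost with a median of 0.13. In P320 2 of the 12 were gained and 0 lost, with a median of 0.22 against 0.39 for all start peaks, and in P10 1 was gained and 0 lost. Whether the serous genes had a part in the HOX results was not tested.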

How the data were processed

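Read counts per consensus peak, whole numbers with no normalization, were taken from the table the authors deposited for 20 libraries (10 groups of 2), made per the labels by Omni-ATAC with paired-end reads. Per the submitters' processing notes, the tools were DESeq2, MACS2, HOMER 4.1, deepTools (3.1 and 3.5.1), Bowtie2, Trim Galore, SAMtools and Picard, with GRCh38; their settings, the treatment of duplicates and the base from which peak starts are counted are not given in the sources used here. Peak coordinates stand as in the table. The other 8 samples of the series were not analysed here. Totals ran from 9627970 to 29699950 counts, with replicate 1 the shallower library in C and in each adapted group. Each error holds the counting error and a spread between replicate libraries that was estimated over all 10 groups together. That spread was unequal: the squared difference between the 2 libraries, in units of counting error and averaged over peaks, was 8.46 in C and 7.89 in T320. It was 2.11 in P10 and 2.22 in P320.

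Peaks were joined to RefSeq gene positions (GRCh38.p14), and sequences come from the RefSeq tables of that build, for 20 of 38 genes. Some list genes are not reported here. The members and the gene lists were chosen with earlier results of these data known. The quasi-likelihood test of edgeR 4.0.16, robust and with TMM scaling, was fitted over the 10 groups without a replicate block (R 4.3.3, limma 3.58.1), tested on simulated data first; filterByExpr removed 0 peaks. There were 13 comparisons: 9 groups against C, T10 against P10, T320 against P320, their interaction, and the dose trend on counts summed over the 2 libraries of each adapted population. Peaks were named by rule: per cluster the 2 called peaks with the smallest p per direction (at least 2 CPM in the higher group, no overlap between libraries) in T320 and P320 against C and T320 against P320, and the start or gene peak with the largest change each way; exceptions are marked. Alternatives were DESeq2 1.42.0, total-count, RLE and gene-end TMM scaling, an offset that takes off the median shift of each 5 Mb window, no filter or a strict one (2 CPM or more in 2 libraries), no fold minimum, a replicate block, the compared groups alone, gene bodies alone, and leaving out each library; filterByExpr for the trend was added after seeing the data.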

Additional observations from a re-analysis of the deposited data

Results flagged for a closer look

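In 4 HOX peaks the step from 10 to 320 uM differed between adapted and 9-day cells by the interaction test of edgeR with Benjamini-Hochberg adjustment (adapted step minus 9-day step). The narrow HOXD3 body peak (chr2:176170294-176170859) had −2.12 ± 0.56 (adjusted p = 0.0092): P10 had 2.911 and 3.88 CPM and P320 9.953 and 9.437, T10 had 2.988 and 3.635 and T320 2.74 and 1.748, and the call was kept in every alternative run. The peak in HAGLR past HOXD3 (chr2:176174178-176175677) had −1.20 ± 0.34 (adjusted p = 0.014), with T10 at 10.71 and 16.65 CPM, T320 at 8.99 and 7.976, P10 at 15.83 and 16.39 and P320 at 22.02 and 23.37; the call ended with gene-end scaling (−0.78), with the window offset (−0.97), and without T10 replicate 2 (−0.84), T320 replicate 2 (−1.11) or P10 replicate 1 (−1.18). The peak inside HOXC4 at chr12:54038376-54040397 had −1.08 ± 0.28 (adjusted p = 0.0077), with T10 at 13.99 and 19 CPM, T320 at 13.61 and 12.64, P10 at 9.085 and 9.546 and P320 at 15.6 in both libraries; the call ended with total-count scaling (−0.98), gene-end scaling (−0.66), the window offset (−0.83) and without T10 replicate 2 (−0.84). The peak 1737 bp from HOXA2 (chr7:27097968-27098617) had 1.77 ± 0.57 (adjusted p = 0.027), with T10 at 1.749 and 1.016 CPM, T320 at 2.14 and 2.957, P10 at 3.66 and 4.751 and P320 at 2.259 and 2.452; it was not called without T10 replicate 2 (1.39), T320 replicate 2 (1.5), P10 replicate 2 (1.56), P320 replicate 1 (1.68) or P320 replicate 2 (1.80). Why these peaks differ was not tested.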

How the results depend on the processing

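Of 24 calls of named peaks, 336 values under alternatives were computed, of which 321 kept direction and call, 15 were no longer called and 0 reversed. The run without the fold minimum is among these alternatives and cannot end a call. Most of these peaks were also named for their small p, so they do not stand for all HOX calls. Counts of called HOX peaks rose without the fold minimum, from 1 to 6 in T5, 9 to 31 in T10, 15 to 33 in T20, 17 to 35 in T40, 12 to 30 in T80, 10 to 24 in T160, 16 to 30 in T320, 8 to 15 in P10, 6 to 13 in P320, 15 to 32 in T10 against P10, 19 to 31 in T320 against P320 and 4 to 7 in the interaction. Gene-end scaling left 4 in P10 and 1 in P320, and the window offset left 6 in T160. A replicate block gave 2 in T5 and 7 in the interaction, the compared groups alone gave 2 in T5, and gene bodies alone gave 0 in T5 and 2 in the interaction; with the block no other count moved by over 1.5 times. Replicate numbers pair libraries only by number: deviations of same-numbered libraries correlated at 0.17 to 0.40 between adapted groups and C, at −0.01 and −0.09 between 9-day groups and C, and the origin of replicates is not given. Leaving out 1 library gave 0 to 3 in T5, 5 to 12 in T10 (5 without T10 replicate 2), 11 to 20 in T20, 13 to 24 in T40, 9 to 18 in T80, 8 to 10 in T160, 14 to 18 in T320, 5 to 7 in P10 (5 without C replicate 2 or either P10 library), 6 to 9 in P320, 12 to 21 in T10 against P10, 18 to 20 in T320 against P320, 1 to 7 in the interaction (1 without T10 replicate 2, 7 without T10 replicate 1) and 0 to 0 in the trend; a group left with 1 library was assumed to vary like the others. Of the 16 HOX calls in T320, 8 were kept in every alternative but the one without the fold minimum, which only adds calls, and of the 6 in P320 1 was. By the same count 3 of 9 were kept in T10, 1 of 8 in P10 and 12 of 19 in T320 against P320. Peaks of 1 to 3 CPM, such as the one in HOXA3, rest on few counts per library.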
